A study of Mus musculus with 4 samples.

Results

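The genes described here are 42 interferon-induced mouse genes, chosen by name and read from the gene table by symbol. Of these, 38 were among the 19465 genes measured; Isg15, Mx1, Mx2 and Cxcl11 are not analysed here. The 38 fall into 16 genes of the Gbp and Cxcl9 type (Gbp2 to Gbp7, Cxcl9, Igtp, Irgm1, Irgm2, Iigp1, Irf1, Irf8, Socs1, Psmb8 and Psmb9), 21 genes of the Ifit and Oas type (Ifit1 to Ifit3, Isg20, Irf7, Irf9, Stat2, Oas2, Oas3, Oasl1, Oasl2, Rsad2, Usp18, Zbp1, Ddx58, Ifih1, Dhx58, Rtp4, Xaf1, Bst2 and Ifi44), and Cxcl10, which belongs to neither.

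BALB/c mice of 8 weeks received 100000 syngeneic 4T1 cells, a mouse triple-negative mammary carcinoma line, in the mammary fat pad, and the primary tumor and the lungs were collected after 28 days. Fixed, paraffin-embedded sections were profiled on Visium slides, on which probe pairs for each gene are captured in a grid of spots, each covering a patch of tissue with more than 1 cell, often of mixed kinds. The groups were primary tumor and lung, with 1 section of each from Mouse_627 and from Mouse_628, so that n = 2 mice per tissue. All 4 sections came from mice that bore 4T1 tumors; lungs of mice without tumors were not analysed here, and the same 2 mice gave both tissues.

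Interferons are secreted proteins that cells release on viral or immune stimulation, and they act through receptors that switch on transcription factors in the cell. Interferon gamma, made mainly by T cells and NK cells, acts through the GAS element of its target genes, and genes such as the guanylate-binding proteins and Cxcl9 are strong targets of it. Type I interferons act through the interferon-stimulated response element (ISRE), and the Ifit and Oas antiviral genes are typical targets, but the target sets overlap widely.

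The sequences upstream of the genes show both elements. The 250 bases before the start of each gene were taken from RefSeq (GRCm38.p6, the mm10 build) for 30 of the 38 genes; Gbp4, Gbp6, Iigp1, Oas2, Usp18, Zbp1, Dhx58 and Rtp4 are named only. The ISRE was searched as GAAA, any 2 bases and GAAA again, and the GAS element as TTCNNNGAA, both on either strand, and a match is only a run of these letters; a gene with several windows was counted where any of them held it. An ISRE match was found for 15 of the 30 genes (50.0%) against 3.46% of 27025 genes with a promoter entry, and a GAS match for 10 (33.3%) against 8.13%. Of 13 Gbp and Cxcl9 type genes, 8 had an ISRE match and 7 a GAS match, with 4 holding both. Of 16 Ifit and Oas type genes, 6 had an ISRE match and 3 a GAS match. Cxcl10 had a single ISRE match, 213 to 204 bases before the start.

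The full windows of 4 genes are given because the results below turn on them or because they show both elements, with matches in capitals, 5′ to 3′ on the strand of the gene, and none overlaps an annotated exon. Cxcl10 lies on the minus strand (chr5:92348890-92349139) and holds the ISRE. Igtp (plus strand, chr11:58199306-58199555) holds a GAS match 45 to 37 bases and an ISRE match 34 to 25 bases before the start. Bst2 (minus strand, chr8:71537473-71537722) holds a GAS match and 2 ISRE matches, each overlapping the next, so that they form a single run of capitals. Rsad2 (minus strand, chr12:26456453-26456702) holds an ISRE in the reverse orientation.
Cxcl10: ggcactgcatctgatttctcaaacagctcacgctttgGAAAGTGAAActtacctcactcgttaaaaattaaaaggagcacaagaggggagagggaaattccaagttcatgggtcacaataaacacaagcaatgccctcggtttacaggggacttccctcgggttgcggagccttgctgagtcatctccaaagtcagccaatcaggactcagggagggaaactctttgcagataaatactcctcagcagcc
Igtp: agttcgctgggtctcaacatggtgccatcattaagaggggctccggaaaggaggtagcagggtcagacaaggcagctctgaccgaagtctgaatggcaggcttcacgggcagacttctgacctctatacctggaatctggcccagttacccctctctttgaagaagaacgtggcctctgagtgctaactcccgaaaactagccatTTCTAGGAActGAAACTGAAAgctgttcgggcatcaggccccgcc
Bst2: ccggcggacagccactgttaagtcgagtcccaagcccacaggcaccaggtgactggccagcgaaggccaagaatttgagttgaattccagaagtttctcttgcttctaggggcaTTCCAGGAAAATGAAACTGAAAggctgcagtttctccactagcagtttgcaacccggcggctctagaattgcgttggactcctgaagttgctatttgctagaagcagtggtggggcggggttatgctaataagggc
Rsad2: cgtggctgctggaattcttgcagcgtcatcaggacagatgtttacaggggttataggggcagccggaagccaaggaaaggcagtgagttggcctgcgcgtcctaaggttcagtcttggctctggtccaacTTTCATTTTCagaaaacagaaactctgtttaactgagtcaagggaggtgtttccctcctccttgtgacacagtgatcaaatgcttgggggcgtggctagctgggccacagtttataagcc

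The matches of Gbp2 and Oas3, which differed between tissues in opposite directions, are shown as 30 bases around the ISRE, since both windows overlap an exon of their gene. The Gbp2 match lies 59 to 50 bases before the start (chr3:142620594-142620623, plus strand) and reads in the reverse orientation, and the Oas3 match lies 75 to 66 bases before the start (chr5:120777715-120777744, minus strand). Neither gene had a GAS match in its window.
Gbp2: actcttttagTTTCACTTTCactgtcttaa
Oas3: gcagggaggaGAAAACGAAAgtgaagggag

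Levels are given as CPM, the count of UMIs (unique molecular identifiers, which mark counted molecules) scaled to a total of 1000000 UMIs for a section or for a class of spots. Probe pairs differ between genes, so levels were compared between samples for each gene and not between genes. Of 9445 spots under tissue, 9339 with over 200 genes were kept. The sections held 13532158 and 10890154 UMIs for the primary tumors of Mouse_627 and Mouse_628 and 11122812 and 30240176 for their lungs, and the median spot held 2931, 1820, 6555 and 9174.5 UMIs in that order. The primary tumor of Mouse_628 stood apart: probes for 1178 olfactory and vomeronasal receptor genes, which these tissues should lack, had a median of 6.61 CPM there against 0.591 CPM in the other primary tumor and 0.132 to 0.180 CPM in the lungs. In that section 8 of the 38 genes (Cxcl9, Gbp5, Socs1, Ifit1, Ifit2, Ifit3, Oasl1 and Dhx58) did not exceed the 95th percentile of these receptors, 19.0 CPM, so their levels there cannot be told from background. The 4 sections differed in make-up as their labels say: surfactant and other alveolar markers summed to 12756 and 7305 CPM in the lungs against 11.6 and 44.3 CPM in the primary tumors, and 6 markers of 4T1 cells to 97.3 and 1139 CPM in the lungs of Mouse_627 and Mouse_628 against 4416 and 5126 CPM. Neutrophil markers took 78987 and 31819 CPM of the lungs and 2477 and 10909 CPM of the primary tumors.

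**Figure D1:**
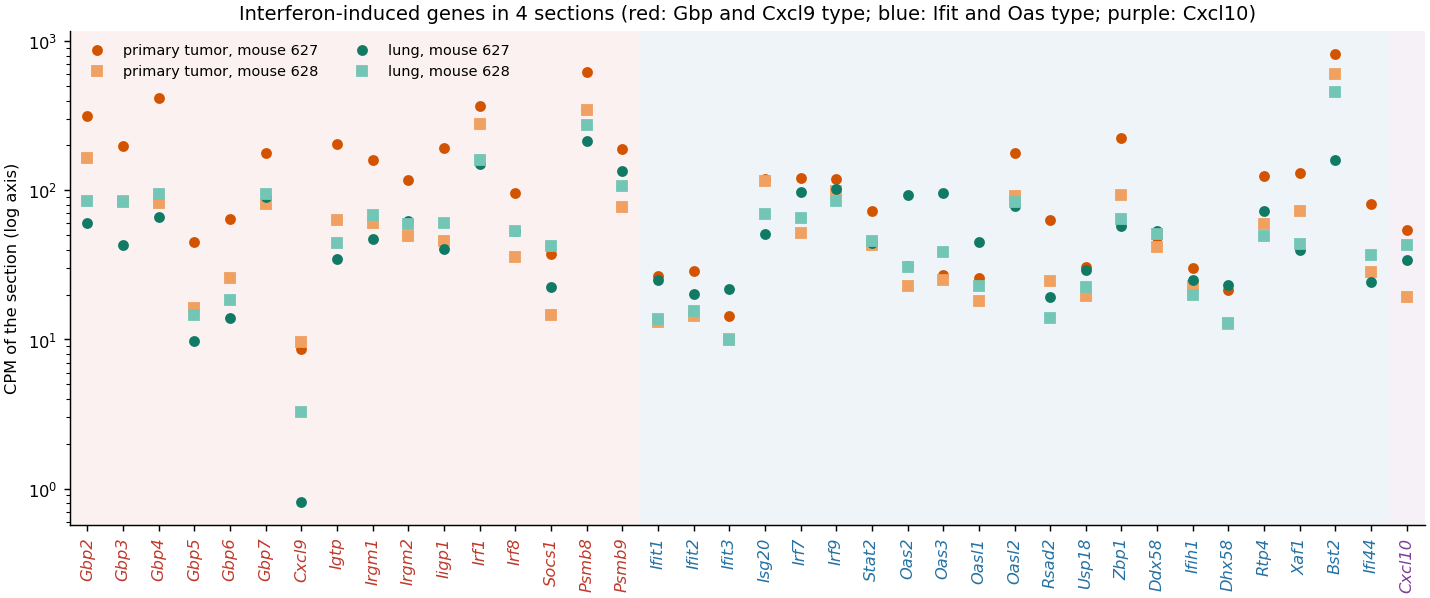
Level of each of the 38 genes in the 4 sections, in CPM on a log axis; circles are Mouse_627 and squares Mouse_628, orange shades primary tumor and green shades lung. The primary tumor of Mouse_627 is the highest of the 4 sections for most Gbp and Cxcl9 type genes, and Oas2 and Oas3 are highest in the lung of Mouse_627.

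The first comparison was between primary tumor and lung. The Gbp and Cxcl9 type genes summed to 3212 CPM in the primary tumor of Mouse_627 and 1437 CPM in that of Mouse_628, against 1044 and 1261 CPM in the lungs. The Ifit and Oas type genes summed to 2343 and 1487 CPM in the primary tumors and 1177 and 1248 CPM in the lungs. In Mouse_627 all 16 Gbp and Cxcl9 type genes were higher in the primary tumor, by 1.41 to 10.6 times and with a median of 3.99, whereas in Mouse_628 only 8 of the 16 were, with a median ratio of 0.956. Over all 15267 genes tested the median ratio of primary tumor to lung was 1.22 in Mouse_627 and 1.15 in Mouse_628, so the raised median of the Gbp and Cxcl9 type genes was seen in Mouse_627 only; the difference between the mice has no replicate and was not tested. In whole sections, fewer cells of a type and less RNA per cell cannot be told apart.

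Guanylate-binding proteins are large GTPases that attack vacuoles of intracellular pathogens. Gbp2 was at 315 and 165 CPM in the primary tumors of Mouse_627 and Mouse_628 and at 60.2 and 85.2 CPM in the lungs, a mean of 240.1 ± 106 against 72.7 ± 17.7 CPM (SD, n = 2). Gbp4 was at 418 and 82.7 CPM in the primary tumors and 66.3 and 94.2 CPM in the lungs. Gbp2, Gbp3, Gbp5 and Gbp6 were higher in both primary tumors than in both lungs. Of these, Gbp3 was nearly level in Mouse_628, at 84.8 CPM in the primary tumor and 83.0 CPM in the lung. Gbp5 was at 16.2 CPM in that primary tumor, within the receptor background. Gbp4 and Gbp7 overlapped between the tissues because the primary tumor of Mouse_628 was below its own lung. Gbp genes are close relatives, and probes could be shared between neighbours of the cluster, so values of single Gbp genes are uncertain in that respect. Likewise Ifit1 and Ifit3 each have a near-identical copy.

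The immunity-related GTPases Igtp, Irgm1, Irgm2 and Iigp1 act with the guanylate-binding proteins on the same vacuoles. Igtp was at 204 and 63.3 CPM in the primary tumors and at 34.8 and 44.7 CPM in the lungs, so the tissues did not overlap. Iigp1 was at 192 and 45.5 CPM in the primary tumors and 40.5 and 60.7 CPM in the lungs. Irgm1, Irgm2 and Iigp1 each overlapped, with the primary tumor of Mouse_627 highest.

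The chemokines Cxcl9 and Cxcl10 recruit T and NK cells through CXCR3. Cxcl9 was at 8.57 and 9.64 CPM in the primary tumors and at 0.809 and 3.27 CPM in the lungs, and rested on 9 UMIs in the lung of Mouse_627. It was higher in both primary tumors, but in Mouse_628 its primary tumor level lay within the receptor background. Cxcl10 was at 54.4 and 19.3 CPM in the primary tumors and 34.1 and 43.0 CPM in the lungs, and so overlapped: the primary tumor stood at 1.60 times the lung level in Mouse_627 and at 0.449 times in Mouse_628, where 19.3 CPM lies just above the receptor background.

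Among the regulators and the antigen-processing genes, Irf1, a transcription factor induced early by interferon gamma, was at 369 and 279 CPM in the primary tumors and 149.9 and 159 CPM in the lungs, and Psmb8, an immunoproteasome subunit, at 621 and 346 against 214 and 272 CPM. Neither overlapped between tissues. Psmb9, its partner subunit, overlapped at 189.99 and 77.8 against 135 and 108 CPM, and so did Irf8, a factor of myeloid cells. Socs1, which inhibits JAK kinases and so limits interferon signalling, was at 37.4 and 14.5 CPM in the primary tumors and 22.7 and 42.6 CPM in the lungs.

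Of the Ifit and Oas type, the antiviral RNA-binding proteins Ifit1, Ifit2 and Ifit3 overlapped between tissues: Ifit1 was at 26.8 and 13.1 CPM in the primary tumors and 25.1 and 13.7 CPM in the lungs, and Ifit3 at 14.3 and 10.1 against 21.8 and 9.89 CPM. Ifit1 was higher in both sections of Mouse_627 than in both sections of Mouse_628. Of the oligoadenylate synthetases, which activate RNase L, Oas2 and Oas3 went the other way from the Gbp genes: Oas2 was at 31.3 and 22.7 CPM in the primary tumors against 93.7 and 30.4 CPM in the lungs, and Oas3 at 27.1 and 25.1 against 95.4 and 38.8 CPM. In each mouse both were higher in the lung, although Oas2 of the lung of Mouse_628 lay just below the primary tumor of Mouse_627. Oas1a and Oas1g, which are not among the 42 genes, were at 37.8 and 27.6 and at 12.9 and 11.1 CPM in the primary tumors against 30.4 and 31.2 and 4.76 and 8.00 CPM in the lungs. Their relative Oasl2 was at 178 and 91.8 CPM in the primary tumors and 78.8 and 83.6 CPM in the lungs.

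Bst2, or tetherin, which holds budding viruses at the cell surface, was at 824 and 606 CPM in the primary tumors and 159.9 and 453 CPM in the lungs, with no overlap. Zbp1, a sensor of left-handed nucleic acids, was at 225 and 93.7 against 57.4 and 64.5 CPM, and Rsad2, or viperin, at 63.3 and 24.5 against 19.2 and 14.0 CPM. The exonuclease Isg20 and the apoptosis-linked gene Xaf1 were also higher in both primary tumors. The RNA sensors differed less: Ifih1 and Dhx58 overlapped, and Ddx58, which encodes RIG-I, was at 48.8 and 41.6 CPM in the primary tumors and 53.8 and 50.7 CPM in the lungs. Irf7, Irf9 and Stat2, the signalling arm of type I interferon, overlapped between tissues, as did Usp18, which restrains it.

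In total 14 of the 38 genes were higher in both primary tumors than in both lungs, 8 of the Gbp and Cxcl9 type and 6 of the Ifit and Oas type, where 37.8% of all 15267 genes were. In the reverse direction 2 were higher in both lungs, Oas3 and Ddx58, where 21.3% of all genes were. The first count is about as common among the 38 as among all genes and the second is less common. The 14 include Gbp5 and Cxcl9, whose levels in the primary tumor of Mouse_628 lay within the receptor background.

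**Figure D2:**
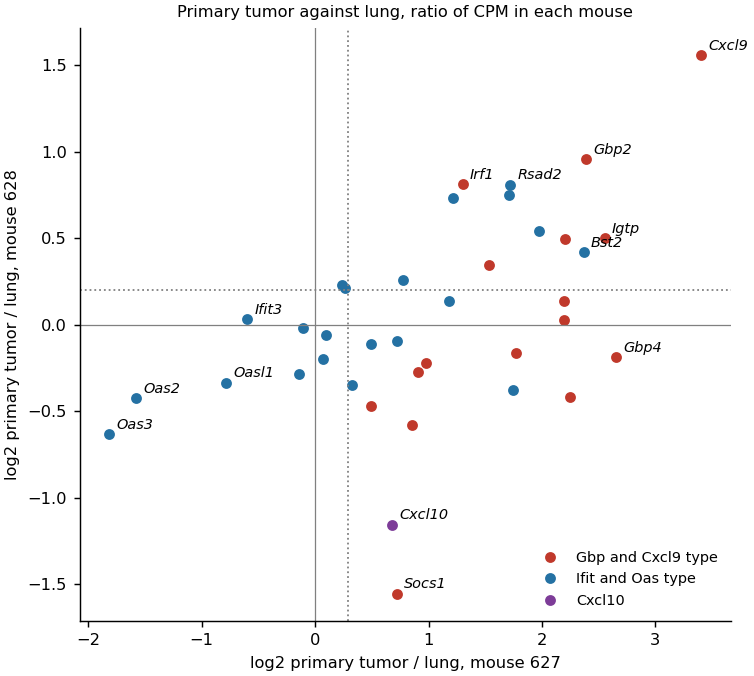
Ratio of CPM in primary tumor to lung for each gene, on a log2 scale, in Mouse_627 (horizontal) and Mouse_628 (vertical); dotted lines mark the median over all genes tested. Red points (Gbp and Cxcl9 type) all lie to the right of zero in Mouse_627 and spread on both sides of zero in Mouse_628; Oas2 and Oas3 lie at the lower left.

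The test of lung against primary tumor used edgeR's quasi-likelihood method on the UMIs summed per section, with Benjamini-Hochberg adjustment over all genes and calls at 0.05. It called 1139 of 15267 genes (7.46%) and 0 of the 38. An unadjusted p under 0.05 was found for 3536 of the 15267 genes and for 7 of the 38. DESeq2 called 3 of the 38 (Gbp2, Igtp and Oas3) among 17.3% of all genes. With the mouse as a block, since both tissues came from the same animals, edgeR called 11.9% of the genes and 4 of the 38. Of these 4, 2 were higher in lung, where 9.17% of all genes were called, and 2 lower, where 2.73% were. Gbp2 was lower in lung, with a log2 fold change of -1.46 ± 0.43 (SE, adjusted p = 0.0763) and -1.37 ± 0.44 with the block (adjusted p = 0.0185). Igtp was lower by -1.49 ± 0.53 on the log2 scale (adjusted p = 0.137) and -1.23 ± 0.43 with the block (adjusted p = 0.0375). Oas3 was higher in lung by 1.72 ± 0.51 (adjusted p = 0.0782) and 1.52 ± 0.44 with the block (adjusted p = 0.00778), and Oas2 by 1.56 ± 0.57 (adjusted p = 0.148) and 1.30 ± 0.45 with the block (adjusted p = 0.0327). The calls varied with the fit: with no filter Oas2 and Oas3 were called higher and Igtp lower, among 10.5% of all genes called, and 0 of the 38 were called with library size alone (2.15% of genes), in spots with at least 2000 UMIs (3.38%) or in those spots with the block (3.16%).

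Of the other genes, Cxcl9 differed by -1.91 ± 1.03, Irf1 by -0.78 ± 0.39, Cxcl10 by 0.32 ± 0.50, Ifit1 by 0.28 ± 0.54 and Ifit3 by 0.71 ± 0.58 on the log2 scale, none of which passed. The median log2 fold change was -0.85 over the Gbp and Cxcl9 type genes, 0.07 over the Ifit and Oas type genes and -0.00 over all genes. Over the core genes Gbp2 to Gbp7 and Cxcl9 the median was -1.22. Over the core genes Ifit1 to Ifit3, Oas2, Oas3, Oasl1 and Oasl2 it was 0.71. With library size alone the Ifit and Oas type median was -0.26, against -0.31 over all genes. Without the primary tumor of Mouse_627 the median of the Gbp and Cxcl9 type genes turned to 0.34, with Oas2 and Oas3 called higher among 34.5% of all genes called. Without the primary tumor of Mouse_628, the section with the raised background, it was -1.42, with Gbp2, Gbp4, Igtp and Iigp1 called lower among 8.05% of all genes called. Without the lung of Mouse_628, Oas2, Oas3 and Oasl1 were called higher, among 13.2% of all genes called. In each of these fits the single section left of a tissue is assumed to vary like the other tissue.

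Macrophage markers summed to 2175 and 470 CPM in the primary tumors and 567 and 1137 CPM in the lungs, thus highest in the primary tumor of Mouse_627 and higher in lung than in primary tumor in Mouse_628, and neutrophil markers were higher in both lungs. T and NK markers summed to 210 and 135 CPM in the primary tumors and 250 and 85.4 CPM in the lungs. All T and NK markers but Gzma lay below the receptor limit of 19.0 CPM in the primary tumor of Mouse_628. The part of these cell types in the levels above was not tested.

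The genes that make and sense interferon were read from a list of 29 ligands, receptors and signalling genes, of which 23 were tested. In the fit without the block 1 was called, Ifngr1, the ligand-binding chain of the interferon gamma receptor, at 479 and 251 CPM in the lungs against 70.0 and 73.9 CPM in the primary tumors (log2 fold change 2.69 ± 0.49, adjusted p = 0.0135). Ifng itself was at 0.450 and 0.562 CPM in the lungs and 2.07 and 4.41 CPM in the primary tumors, of which the lung of Mouse_627 and the primary tumor of Mouse_628 lie within the receptor background of their sections, and it did not pass. Ifnar1, a chain of the type I interferon receptor, differed by 0.43 ± 0.39 on the log2 scale and did not pass. Of 36 further interferon-induced genes tested, 2 were called higher in lung (Slfn5 and Trim30a) and 2 lower (Cd274, which encodes PD-L1, and Ifi203), where 7.46% of all genes were called in either direction, and 6 and 3 with the block, where 9.17% and 2.73% were. Cd274 was at 218 and 113 CPM in the primary tumors and 23.7 and 24.9 CPM in the lungs (log2 fold change -2.49 ± 0.44, adjusted p = 0.0120).

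The next comparison was within the lungs, between spots rich and poor in 4T1 markers (Csf3, Mmp3, Mmp13, Mmp10, Plau and Hmga2). Spots were ranked by the share of their UMIs, taken over a spot and its up to 6 touching neighbours, on these genes. The upper and lower quartiles were compared, 425 spots each in Mouse_627 and 695 each in Mouse_628. The markers summed to 305 CPM in rich and 5.55 CPM in poor spots of Mouse_627, and to 2029 and 180 CPM in Mouse_628. The rich class of Mouse_627 thus lay nearer to the poor than to the rich class of Mouse_628. Median UMIs per spot were 5584 and 6795 in rich and poor spots of Mouse_627, and 16448 and 7119 in Mouse_628. All 16 Gbp and Cxcl9 type genes were higher in the marker-rich spots of both mice, with median ratios of 2.37 and 2.05, and so were 14 of the 21 Ifit and Oas type genes and Cxcl10. Together 31 of the 38 were higher in both mice, where 48.3% of 12321 genes were, and 2 were lower in both mice, Oas2 and Oas3, where 27.3% were.

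Cxcl10 had the largest ratio of the 38 genes in each mouse. It was at 97.4 CPM in marker-rich and 11.8 CPM in marker-poor spots of Mouse_627, and at 55.9 and 14.1 CPM in those of Mouse_628, which is 8.26 and 3.96 times. The marker-rich quartile held 66.2% of the 379 Cxcl10 UMIs of the lung of Mouse_627 and 51.7% of the 1299 of Mouse_628, against 23.2% and 39.8% of all UMIs. Both marker-rich values lay above both marker-poor values, but the share of all genes with such a gap was not counted.

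Ifi44, an interferon-induced cytoplasmic protein, was at 62.8 and 14.9 CPM in rich and poor spots of Mouse_627 and at 48.3 and 13.9 CPM in those of Mouse_628. Bst2 was at 303 and 107 CPM and at 616 and 189.5 CPM in the same order. Iigp1 was at 93.9 and 22.5 CPM and at 66.0 and 28.4 CPM. For each of these 3 genes, and for others such as Gbp2 to Gbp7, both rich values lay above both poor values.

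Among the Gbp genes, Gbp2 was at 85.4 and 47.5 CPM in rich and poor spots of Mouse_627 and at 109.7 and 42.7 CPM in those of Mouse_628, and Gbp4 at 123 and 46.1 CPM and at 104 and 45.0 CPM. Cxcl9 was at 2.72 and 0.347 CPM in Mouse_627, where 77.8% of its 9 UMIs lay in the rich quartile, and at 3.74 and 1.23 CPM in Mouse_628. Irf1 moved little, with ratios of 1.25 and 1.14. Of the Ifit genes, Ifit1 was higher in the rich spots of both mice, at 45.0 against 19.1 and at 12.8 against 10.0 CPM, as was Ifit2, at 35.3 against 15.9 and at 16.9 against 13.9 CPM. Ifit3 was at 40.7 against 13.5 CPM in Mouse_627 but at 7.15 against 12.3 CPM in Mouse_628.

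Oas2 and Oas3 were lower in the marker-rich spots of both mice. Oas2 was at 77.6 CPM in marker-rich and 109.9 CPM in marker-poor spots of Mouse_627 and at 17.0 and 47.8 CPM in those of Mouse_628. Oas3 was at 82.2 and 109.5 CPM and at 26.3 and 64.8 CPM. Neutrophil markers were lower in them too, going from 87430 to 60644 CPM in Mouse_627 and from 71214 to 6375 CPM in Mouse_628, and macrophage markers were higher, going from 448 to 823 CPM and from 602 to 1462 CPM. Fibroblast markers went from 526 to 1306 and from 1022 to 2078 CPM, proliferation markers from 203 to 660.4 and from 389.7 to 1870.1 CPM, and endothelial markers from 1578 to 1242 and from 1192 to 339 CPM. Markers of alveolar epithelium went from 13178 to 11782 and from 12321 to 2757 CPM, of B cells from 339.6 to 255 and from 69.5 to 43.3 CPM and of dendritic cells from 59.6 to 53.5 and from 32.3 to 19.3 CPM. Other lists differed in direction between the mice, with T and NK markers going from 242 to 269.7 and from 110.2 to 56.7 CPM, airway markers from 188 to 795 and from 847 to 188 CPM and cardiac muscle markers from 95.7 to 343 and from 514 to 234 CPM. The part of these cell types in either pattern was not tested.

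**Figure D3:**
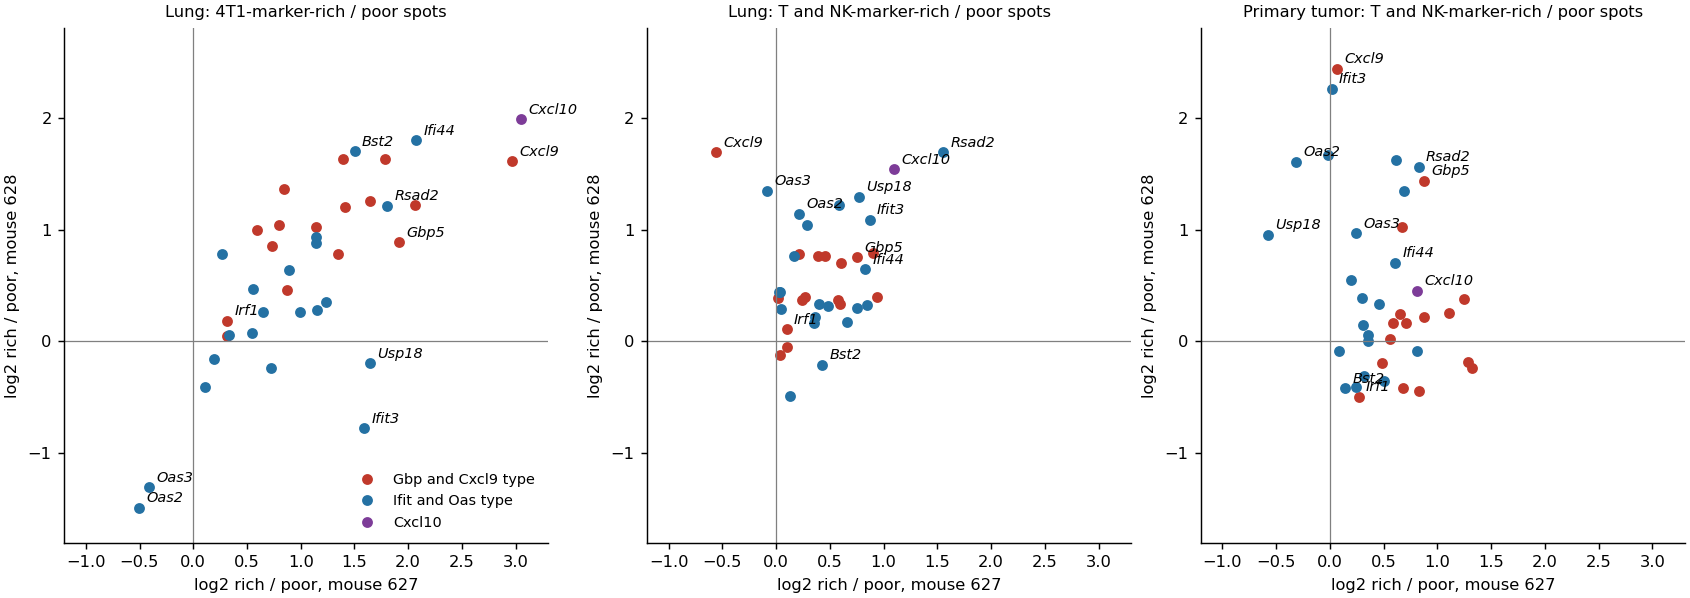
Ratio of CPM in marker-rich to marker-poor spots for each gene, on a log2 scale, in Mouse_627 (horizontal) and Mouse_628 (vertical), for 3 pairs of spot classes. In the lungs, Cxcl10 lies at the upper right for the 4T1 classes while Oas2 and Oas3 lie at the lower left, and most genes lie above zero in both mice for the T and NK classes.

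In edgeR's test on the 4 sums, 0 of 12321 genes (0%) were called, and 0 of the 38; 631 genes and 13 of the 38 had an unadjusted p under 0.05, and DESeq2 called 0. With the mouse as a block 82 genes (0.666%) were called, of which Cxcl10 was the single one of the 38 (log2 fold change 2.32 ± 0.39, adjusted p = 0.0471, against 2.39 ± 0.43 and adjusted p = 0.585 without the block). The call of Cxcl10 was lost with the block in spots with at least 2000 UMIs (adjusted p = 0.0650) and with the block and classes at the upper and lower 10 percent (adjusted p = 0.103), in both of which 0% of all genes were called. Spots tied at the lower limit all count as poor, so that the poor class of Mouse_627 then held 299 of its 1697 spots. With the block and the share of each spot alone, Cxcl10 and Ifi44 were called higher, among 3.54% of genes, where through ties the poor class of Mouse_627 held 1163 spots against 425 rich ones. Over all alternatives the log2 fold change of Cxcl10 stayed between 1.87 and 2.99. Ifi44 differed by 1.78 ± 0.33, Gbp2 by 0.94 ± 0.28, Cxcl9 by 1.76 ± 0.89, Irf1 by 0.08 ± 0.27, Ifit1 by 0.82 ± 0.76, Ifit3 by 0.72 ± 0.90 and Oas2 by -0.91 ± 0.86 on the log2 scale. The median was 0.92 over the Gbp and Cxcl9 type genes and 0.58 over the Ifit and Oas type genes, against 0.01 over all genes, and with the block the Ifit and Oas type median was 0.36. Without the marker-rich spots of Mouse_627 the Ifit and Oas type median was -0.20 and 13 of the 38 were called, 11 higher (Bst2, Cxcl10, Gbp2, Gbp3, Gbp4, Gbp6, Ifi44, Iigp1, Irgm1, Psmb8 and Socs1) and 2 (Oas2 and Oas3) lower, where 43.2% of all genes were called; the single rich class left is assumed to vary like the poor ones, so these calls have no replicate of their own.

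Over all 4 quartiles of 4T1 marker share, a reading added after the data had been seen, Cxcl10 rose stepwise in both lungs, from 11.8 over 12.1 and 21.6 to 97.5 CPM in Mouse_627 and from 14.1 over 27.8 and 52.8 to 55.9 CPM in Mouse_628. Gbp2, Bst2 and Rtp4 also rose over every step in both lungs, which makes 4 of the 38 where 7.41% of 15248 genes did. Oas2 and Oas3 were the 2 of 38 that fell over every step in both lungs, where 3.69% of genes did, and their summed level went from 219 to 159.7 CPM in Mouse_627 and from 113 to 43.3 CPM in Mouse_628.

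In the primary tumors the same ranking gave another picture for Cxcl10. It fell over every step, from 73.4 to 35.4 CPM in Mouse_627 and from 32.8 to 13.2 CPM in Mouse_628. Rsad2 fell from 85.8 to 49.4 and from 54.1 to 13.2 CPM, and Ifit2 fell over every step in both as well, which makes 3 of 38 where 2.93% of genes did. From the lowest to the highest quartile, 11 of the 38 were higher in both lungs and lower in both primary tumors, where 11.3% of genes were, and 0 went the reverse way, where 1.96% did. A rise over every step in both primary tumors was seen for 0 of the 38 (1.1% of genes). In Mouse_628 the summed receptor probes fell alongside, from 26320 to 3384 CPM, and in Mouse_627 from 1004 to 806 CPM; the part of this background was not tested. Gbp2 to Gbp7 and Cxcl9 together showed no such fall, at 1085 and 1158 CPM in the lower and upper quartile of Mouse_627 and at 485 and 461 CPM in Mouse_628.

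Ranked by macrophage markers instead, Gbp2 to Gbp7 and Cxcl9 together rose over every step in all 4 sections, from 709 to 1435 and from 362 to 563 CPM in the primary tumors of Mouse_627 and Mouse_628 and from 219 to 430 and from 207 to 499.5 CPM in their lungs. Gbp2 and Gbp5 were the 2 of 38 that rose over every step in both lungs, where 7.9% of all genes did. Cxcl10 rose from 17.3 to 82.9 CPM in the primary tumor of Mouse_627 and was at 19.2 and 18.5 CPM in that of Mouse_628. Oas3 was the single gene of the 38 that fell over every step in both lungs, where 3.29% of all genes did, and the single member lower in the highest than in the lowest quartile of both lungs and higher in that of both primary tumors, where 4.84% did. The reverse was seen for 0 of the 38 (11% of all genes), and a fall over every step in both primary tumors likewise for 0 (0.597%), while Igtp, Socs1 and Ddx58, 3 of the 38, rose over every step in both primary tumors, where 0.892% of genes did.

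**Figure D4:**
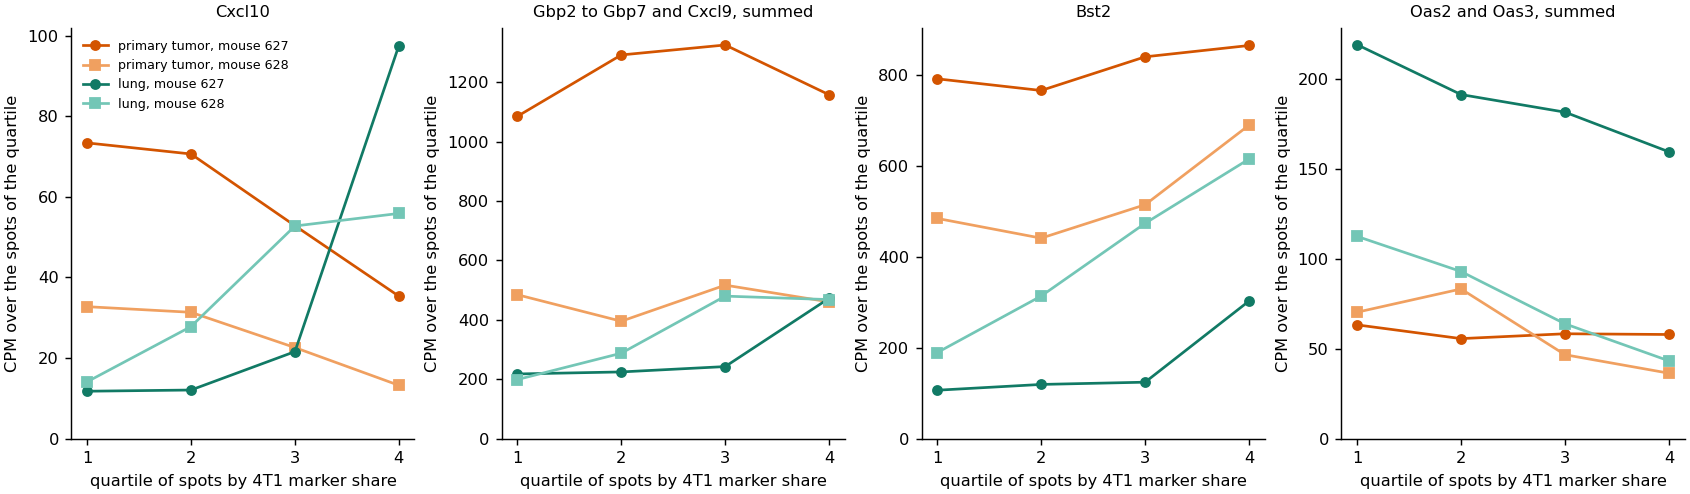
Level in CPM over the spots of each quartile of 4T1 marker share, for Cxcl10, for Gbp2 to Gbp7 and Cxcl9 summed, for Bst2 and for Oas2 and Oas3 summed; each line is 1 section. Cxcl10 rises in both lungs (green shades) and falls in both primary tumors (orange shades), while Oas2 and Oas3 fall in both lungs.

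Spots rich in T and NK markers (such as Cd3e, Cd8a and Ncr1) were compared with poor ones, since these cells are a main source of interferon gamma. In the lungs 32 of the 38 genes were higher in the marker-rich spots of both mice, 13 of 16 of the Gbp and Cxcl9 type, 18 of 21 of the Ifit and Oas type and Cxcl10, where 21.6% of 12524 genes were; none of the 38 was lower in both, where 30.2% were. The median ratios were modest, 1.26 and 1.31 for the Gbp and Cxcl9 type and 1.32 and 1.36 for the Ifit and Oas type.

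Rsad2 was at 36.4 CPM in rich and 12.4 CPM in poor lung spots of Mouse_627 and at 28.2 and 8.73 CPM in those of Mouse_628. Cxcl10 was at 58.8 and 27.5 CPM and at 69.0 and 23.7 CPM. Usp18 was at 41.0 and 24.0 CPM and at 37.6 and 15.4 CPM. Each of these 3 genes, like others such as Gbp4, Gbp5 and Igtp, was higher in both rich classes than in both poor ones. How many of all genes showed such a gap was not counted. Irf1, with ratios of 1.07 and 1.08, hardly moved.

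No gene passed edgeR's test in this comparison, with or without the block (0 of 12524 genes and 0 of 37 of the 38 tested). Without the block, 14 genes and 3 of the 37 had an unadjusted p under 0.05, and DESeq2 called 0. With the block, 429 genes and 15 of the 37 had an unadjusted p under 0.05. Rsad2 differed by 1.67 ± 0.43 and Cxcl10 by 1.37 ± 0.31 on the log2 scale, and Gbp2 by 0.37 ± 0.33, Irf1 by 0.16 ± 0.27, Ifit1 by 0.84 ± 0.68, Ifit3 by 0.99 ± 0.78 and Oas2 by 0.45 ± 0.95. Cxcl9, with too few UMIs, was not tested. The median was 0.51 over the Gbp and Cxcl9 type genes and 0.45 over the Ifit and Oas type genes, against -0.02 over all genes. Without the poor spots of Mouse_627, 3 of the 38 (Oas2, Oas3 and Rsad2) were called higher, among 4.3% of all genes called; the single poor class left is assumed to vary like the rich ones, so these calls have no replicate of their own. When classes were drawn from the share of each spot alone and the mouse was a block, a combination added after the data had been seen, 10 of the 38 were called higher, among 0.845% of all genes called: Rsad2, Gbp5, Cxcl10, Iigp1, Usp18, Ifi44, Igtp, Irgm2, Gbp4 and Irf7, from 1.17 ± 0.22 for Rsad2 (adjusted p = 2.83e-05) to 0.53 ± 0.13 for Irf7 (adjusted p = 0.00709). Through ties the poor class then held 484 of 1697 spots in Mouse_627 and 1263 of 2780 in Mouse_628, against 425 and 695 rich ones. With those classes and no block, and with the block in spots with at least 2000 UMIs or in the upper and lower 10 percent, 0 of all genes were called. The poor class of Mouse_628 held more 4T1 markers than the rich one, 1666 against 852 CPM, and fewer neutrophil markers, 14625 against 42370 CPM. It also held fewer markers of alveolar epithelium (3984 against 9548 CPM), endothelium (458 against 837 CPM), cardiac muscle (237 against 893 CPM) and B cells (31.7 against 90.4 CPM), and more of macrophages (1382 against 962 CPM), fibroblasts (2147 against 1711 CPM) and proliferation (1677 against 1002 CPM). In Mouse_627 the poor class held more B cell markers (569 against 345 CPM) and airway markers (813 against 396 CPM), and the ratio of rich to poor was between 0.92 and 1.09 for 4T1, neutrophil, alveolar, endothelial, macrophage, fibroblast and proliferation markers. Dendritic cell markers were higher in rich spots of both mice, at 78.4 against 57.4 CPM (Mouse_627) and 34.7 against 21.1 CPM (Mouse_628). The part of these cell types was not tested.

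In the primary tumors 23 of the 38 genes were higher in the T and NK-marker-rich spots of both mice, where 25.1% of 11822 genes were. In Mouse_627 all 16 Gbp and Cxcl9 type genes were, with a median ratio of 1.61, and in Mouse_628 10 of 16, with a median of 1.12. Gbp4 was at 646 and 272 CPM in rich and poor spots of Mouse_627 and at 91.4 and 70.0 CPM in those of Mouse_628. Cxcl10 was at 75.9 and 43.3 CPM and at 23.1 and 16.9 CPM, and Rsad2 at 63.6 and 35.9 CPM and at 48.4 and 16.4 CPM.

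The classes of this comparison differed in background: the receptor probes summed to 31033 CPM in rich and 3665 CPM in poor spots of Mouse_628, and to 701 and 2421 CPM in Mouse_627. Over the whole primary tumor of Mouse_628, every T and NK marker except Gzma (24.0 CPM) lay below the receptor limit of 19.0 CPM. Its T and NK-marker-rich spots therefore cannot be told from spots of high background. Airway markers, at 56.1 against 5.41 CPM, were also higher in these rich spots. Macrophage markers were at 2936 and 1331 CPM in Mouse_627 and at 430.4 and 452 CPM in Mouse_628. Keratinocyte markers were at 398 and 40.1 CPM in Mouse_627 and at 82.6 and 35.9 CPM in Mouse_628, and dendritic cell markers at 19.9 and 21.1 CPM and at 149.7 and 25.1 CPM. B cell markers were at 36.3 and 23.2 CPM and at 147 and 15.6 CPM, neutrophil markers at 2001 and 3565 CPM and at 12722 and 9299 CPM, and fibroblast markers at 886 and 722 CPM and at 300.5 and 449 CPM. Markers of 4T1 cells were at 4080.4 and 4267 CPM and at 2691 and 5546 CPM, of proliferation at 1015 and 575 CPM and at 494 and 726 CPM, and of alveolar epithelium at 10.8 and 12.7 CPM and at 123 and 23.0 CPM. The part of these cell types and of the background in the result was not tested. In edgeR's test 0 of 11822 genes (0%) and 0 of the 38 were called, 141 genes and 2 of the 38 having an unadjusted p under 0.05, and DESeq2 called 2 genes and 0 of the 38; with the mouse as a block 0.347% of genes and 0 of the 38 were called. Rsad2 differed by 1.17 ± 0.40, Gbp2 by 0.38 ± 0.52, Cxcl9 by 1.24 ± 1.00, Cxcl10 by 0.85 ± 0.62, Irf1 by -0.05 ± 0.45, Ifit1 by 0.96 ± 0.58, Ifit3 by 1.04 ± 0.78 and Oas2 by 0.50 ± 0.50 on the log2 scale. The median was 0.66 over the Gbp and Cxcl9 type genes and 0.36 over the Ifit and Oas type genes, against 0.05 over all genes. With a sample left out the medians of these types ranged from -1.17 to 1.34 and from -0.61 to 0.74. With the block and the share of each spot alone they were 0.099 and -0.047.

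Among spots with at least 2000 UMIs, where the receptor probes took 11455 CPM in rich and 2513 CPM in poor spots of Mouse_628 and 453 and 936 CPM in those of Mouse_627, and with the mouse as a block, also a combination added later, 16 of the 38 were called higher, 12 of the Gbp and Cxcl9 type, 3 of the Ifit and Oas type and Cxcl10, where 2.16% of 11974 genes were called in either direction. The largest were Iigp1 at 1.32 ± 0.19 (adjusted p = 7.53e-09), Gbp4 at 1.29 ± 0.19, Gbp5 at 1.27 ± 0.23, Cxcl10 at 1.19 ± 0.22, Ifit1 at 1.15 ± 0.30, Irgm2 at 1.10 ± 0.19, Gbp6 at 1.03 ± 0.20, Socs1 at 0.97 ± 0.24, Igtp at 0.89 ± 0.19 and Ifi44 at 0.85 ± 0.19 on the log2 scale, and the others were Gbp2, Gbp3, Gbp7, Irgm1, Psmb9 and Rsad2. In the same spots without the block 0 of 11974 genes were called, and 0 of the members with the block in the upper and lower 10 percent (0.373% of genes) or with the share of each spot alone (0.0743%). Through ties the poor class held 545 of the 2490 spots of Mouse_627 in the first of these, and 1427 of them and 1403 of the 2372 of Mouse_628 in the second. Without the rich spots of Mouse_628 21 of the 38 were called higher, among 3.84% of genes: Cxcl10, Gbp2 to Gbp7, Ifi44, Ifit1, Igtp, Iigp1, Irf7, Irf8, Irgm1, Irgm2, Psmb8, Psmb9, Rsad2, Rtp4, Socs1 and Zbp1. Without those of Mouse_627 4 (Igtp, Iigp1, Irgm1 and Rtp4) were called lower, among 26.3% of genes. Each of these fits sets the rich spots of 1 mouse, assumed to vary like the poor class, against the poor spots of both. The Gbp and Cxcl9 type summed to 4194 CPM in rich and 2506 CPM in poor spots of Mouse_627 and to 1324 and 1374 CPM in those of Mouse_628. A test of whether the T and NK class effect differed between lung and primary tumor called 2 of 14621 genes and 0 of the 38, with 1 of the 38 at an unadjusted p under 0.05.

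Over single spots both types of gene were sparse. After each spot was thinned to 1000 UMIs (886, 56, 10 and 5 shallower spots were left out in the primary tumors of Mouse_627 and Mouse_628 and in their lungs), a spot held on average 3.10, 1.27, 1.02 and 1.22 UMIs of the Gbp and Cxcl9 type and 2.28, 1.42, 1.14 and 1.21 of the Ifit and Oas type. Pearson's r of the types over spots was 0.137, 0.112, 0.119 and 0.222 in the same order. Spearman's rank correlation was 0.132, 0.103, 0.090 and 0.108. Over the core genes of each type, Pearson's r was 0.045, 0.029, 0.028 and 0.108. Taken over a spot and its neighbours, Pearson's r of the whole types was 0.482, 0.548, 0.710 and 0.731. Neighbouring spots then share UMIs, and depth differs between spots, so these are descriptions. In the maps the summed CPM of the Gbp and Cxcl9 type spanned 1285 to 4913 (5th to 95th percentile) in the primary tumor of Mouse_627, with a broad high region, against 568 to 2271 in that of Mouse_628. In the lungs it spanned 613 to 1899 and 589 to 2691, with a few compact patches above a low level, and the Ifit and Oas type spanned 720.3 to 1846 and 634 to 2319.

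**Figure D5:**
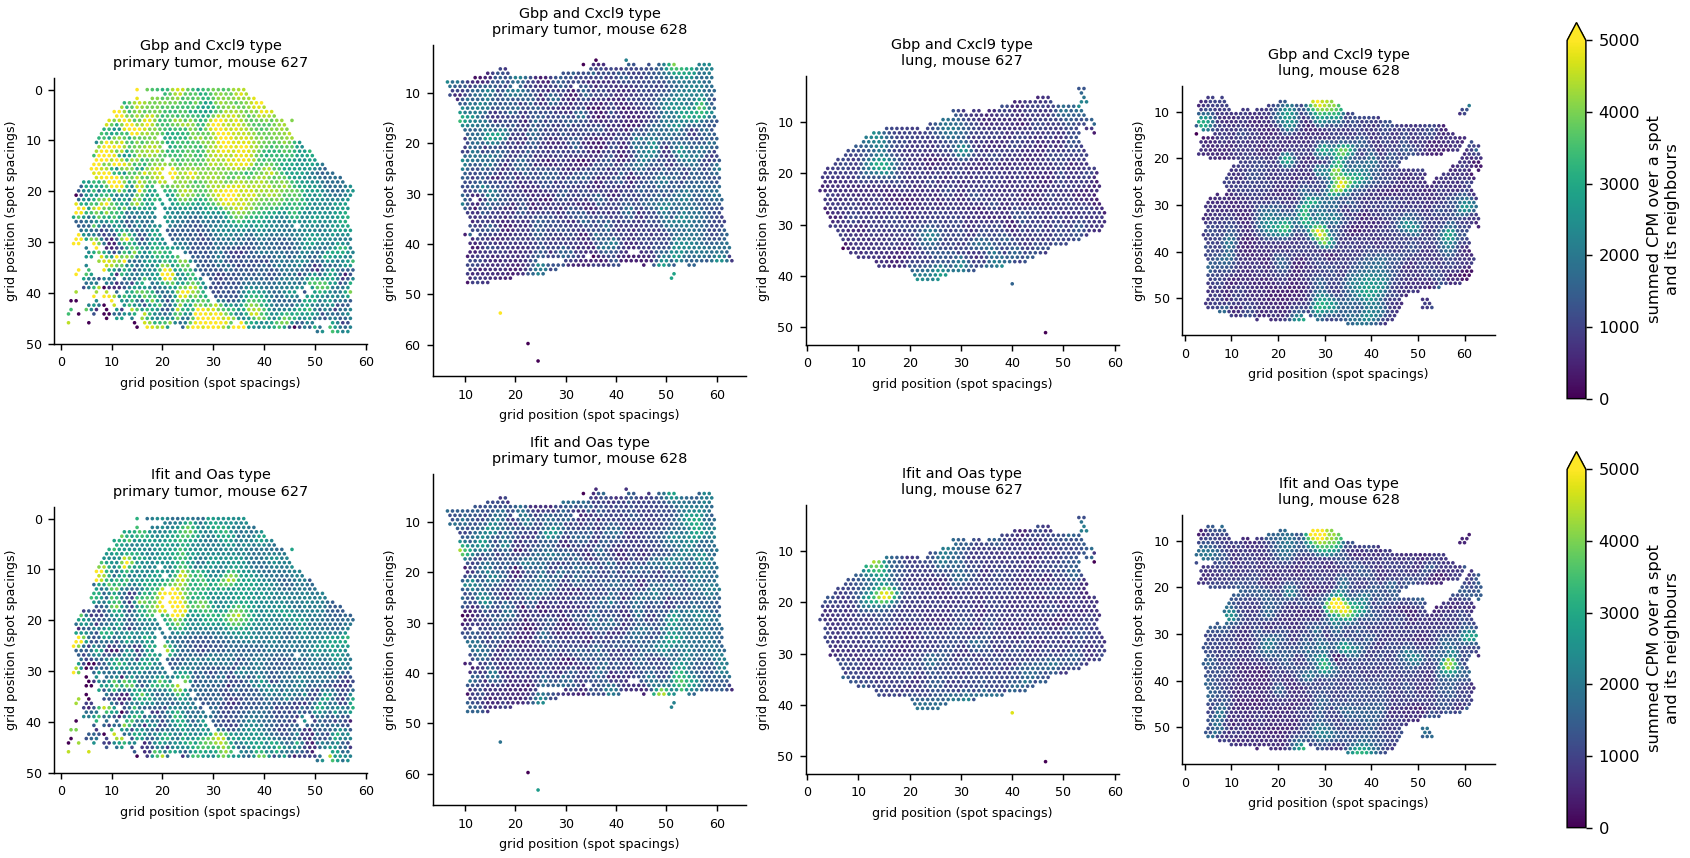
Summed CPM over each spot and its neighbours for the Gbp and Cxcl9 type (top) and the Ifit and Oas type (bottom) in the 4 sections; axes are grid positions in spot spacings, and the color scale is the same in all panels and ends at 5000 CPM. The primary tumor of Mouse_627 has a broad high region of the Gbp and Cxcl9 type, and both lungs have small patches in which both types are high.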

How the data were processed

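Sections were profiled on Visium slides for fixed, paraffin-embedded tissue. The authors deposited UMI counts per gene and spot, made with Space Ranger 2.0.0 on mm10 per the labels, with the spots under tissue marked; no normalization had been applied. Spots with over 200 genes were kept. The members and gene lists were chosen with earlier results of these data known. UMIs were summed per section, or per section and spot class (upper and lower 25 percent of a marker share, with spots tied at a limit all included), and tested with edgeR 4.0.16 (quasi-likelihood test, TMM scaling, filter on low counts, Benjamini-Hochberg adjustment over all genes, threshold 0.05) in R 4.3.3; DESeq2 1.42.0 was an alternative. Spots are not replicates: the mouse is the unit, with 2 mice per group, for which an exact permutation test cannot reach 0.05. The p-values measure only the spread between these sections, which edgeR and DESeq2 estimate in part from other genes. Since sections and classes of a number come from the same mouse, a fit with the mouse as a block was run. With the block the 4 sums leave little spread of each gene's own, so its small p-values rest mostly on that shared estimate. The deviations of same-mouse samples from their group means correlated at -0.293 (lung and primary tumor), 0.427 (4T1 classes), 0.811 (T and NK classes, lung) and 0.309 (T and NK classes, primary tumor). In text, all 42 genes could be named; genes called were named, with values for at most 10 per fit, and Gbp2, Cxcl9, Cxcl10, Irf1, Ifit1, Ifit3 and Oas2 were given for each comparison from edgeR without the block, where tested. Of the other interferon genes, Ifng, Ifngr1, Ifnar1 and called genes could be named, and Oas1a and Oas1g were added after their values were seen; a further gene that the rule names is not reported here. Other alternatives were library size scaling, no filter, spots with at least 2000 UMIs, the upper and lower 10 percent, the share of a spot alone and leaving out each sample. The scripts were tested on simulated data. Plain ratios used Python 3.11.15, pandas 2.3.3, numpy 2.4.6 and scipy 1.17.1.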

Additional observations from a re-analysis of the deposited data

Results flagged for a closer look

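From the lowest to the highest quartile of 4T1 marker share, 11 of the 38 genes moved in opposite directions in the tissues, higher in both lungs and lower in both primary tumors, where 11.3% of 15248 genes did: Gbp4, Gbp5, Irgm2, Ifit1, Ifit2, Irf7, Rsad2, Ifih1, Xaf1, Ifi44 and Cxcl10. The ratio of the highest to the lowest quartile was 8.28 and 3.96 for Cxcl10 in the lungs of Mouse_627 and Mouse_628 and 0.482 and 0.404 in their primary tumors, and 3.50 and 2.32 against 0.576 and 0.245 for Rsad2. For Gbp4 the fall in the primary tumors was slight, with ratios of 0.995 and 0.920. The difference between the tissues was not tested, and the receptor probes fell with the 4T1 share in the primary tumors.

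Over quartiles of macrophage marker share, 1 of the 38 genes, Oas3, went the other way, lower in both lungs (0.750 and 0.419) and higher in both primary tumors (1.29 and 1.43), where 4.84% of genes did. This difference was not tested either. Both readings were added after the data had been seen.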

How the results depend on the processing

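Of 537 alternative values, 422 stayed the same, 68 moved, 29 passed the threshold only under the alternative and 18 changed sign. A single gene stayed the same if it kept its direction and side of the threshold. A median stayed the same if it moved no more than the spread between mice, and a count of genes called if it was equal or close in ratio. Correlations over spots were held to a limit set by the number of spots, which is not a spread between mice. The causes were not tested. Counts of the 38 genes called are given here with the percentage of all genes called in the same fit. Between lung and primary tumor the count was 0 (7.46%), and 3 with DESeq2 (17.3%), 3 with no filter (10.5%) and 4 with the replicate block (11.9%). It was 0 with library size alone (2.15%), with deep spots (at least 2000 UMIs, 3.38%) and with the block and deep spots (3.16%). For the 4T1 classes it was 1 with the replicate block (0.666%) and 2 with the block and the share of the spot alone (3.54%). With the block and deep spots or 10 percent it was 0 there (0%). For the T and NK classes of the lung it was 10 with the block and the spot alone (0.845%). With the spot alone, or with the block and deep spots or 10 percent, it was 0 there (0%). For those of the primary tumor it was 16 with the block and deep spots (2.16%). It was 0 there with deep spots (0%), with the block and 10 percent (0.373%) and with the block and the spot alone (0.0743%). Leaving out a sample gave 0 to 4, 0 to 13, 0 to 3 and 0 to 21 in the same order of comparisons.

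The median log2 fold change of lung against primary tumor was -0.26 with library size alone and 0.71 over core genes alone for the Ifit and Oas type, and leaving out a sample gave -1.42 to 0.34 for the Gbp and Cxcl9 type and -0.39 to 0.68 for the Ifit and Oas type. For the 4T1 classes the Gbp and Cxcl9 type median was 1.10 with library size alone, 1.21 over core genes and 0.88 to 0.96 with a sample left out, and the Ifit and Oas type median -0.20 to 0.78. For the T and NK classes of the lung the Gbp and Cxcl9 type median was 0.45 with library size alone, 0.87 with the upper and lower 10 percent (0.85 with the block too), 0.46 with the share of the spot alone, 0.57 over core genes and 0.31 to 0.72 with a sample left out. There the Ifit and Oas type median was 0.40 with library size alone, 0.41 with no filter, 0.53 with the replicate block, 0.53 with the block and deep spots, 0.62 with 10 percent (0.70 with the block too), 0.30 with the spot alone (0.34 with the block too), 0.62 over core genes and 0.24 to 0.74 with a sample left out. In the primary tumors the Gbp and Cxcl9 type median was 0.27 with the spot alone, 0.099 with the block too, and -1.17 to 1.34 with a sample left out. The Ifit and Oas type median there was 0.49 with library size alone, 0.066 with no filter, 0.50 with deep spots (0.45 with the block too), 0.052 with the spot alone (-0.047 with the block too), 0.24 with the block and 10 percent, 0.56 over core genes and -0.61 to 0.74 with a sample left out. The correlation of the types over spots was 0.245, 0.211, 0.286 and 0.367 after thinning to 2000 UMIs and 0.482, 0.710, 0.548 and 0.731 over neighbours, in the primary tumor and lung of Mouse_627 and then of Mouse_628. The combinations of the block with another setting were chosen after seeing the data.

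Some differences of single genes changed sign. Between lung and primary tumor, leaving out a sample gave log2 fold changes of -0.34 to 1.59 for Cxcl10, -0.27 to 1.22 for Ifit1 (-0.058 with library size alone) and -0.0027 to 1.44 for Ifit3. For the 4T1 classes it gave -0.0088 to 0.13 for Irf1, -0.39 to 1.51 for Ifit1 and -1.08 to 1.51 for Ifit3, which was -0.11 with the block and the spot alone, and for the T and NK classes of the lung -0.43 to 2.10 for Oas2. In the primary tumors it gave -1.10 to 0.97 for Gbp2, -0.94 to 1.61 for Cxcl10, -1.37 to 0.45 for Irf1 and -0.27 to 0.73 for Oas2, and Irf1 was at 0.050 with library size alone, 0.38 with deep spots and 0.36 with the block too. With 9 UMIs in the lung of Mouse_627, Cxcl9 is limited by depth, and with 2 mice per tissue the values rest on single animals.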
